A study of Mus musculus with 6 samples.

Results

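The 46 genes described here act in DNA repair and in the signalling of DNA damage in haematopoietic stem cells (HSCs), the cells of the bone marrow from which all blood lineages arise. They were given as a list of symbols and found as 46 of the 47937 genes in the deposited expression table, each by its Ensembl ID. They were ordered here by role into 9 groups, from the Fanconi anaemia pathway to mismatch repair. RNA came from the marrow of 8-week-old male wild-type C57BL/6 mice. HSCs were sorted as lineage-depleted LSK cells that were CD34-, CD48-, Flt3- and Slam1+, and divided by CD93, a surface receptor, into a positive (CD93pos, 3 libraries) and a negative fraction (CD93neg, 3 libraries). No other treatment or allele was named, and the number of animals behind each library is not given in the sources used here. The comparison asks how the transcripts of the CD93 fractions differ.

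Each repair pathway handles another kind of lesion. The Fanconi pathway recognises crosslinks between the DNA strands: a core ubiquitin ligase complex marks the paired proteins FANCD2 and FANCI, which brings nucleases and homologous recombination to the site. Homologous recombination copies the sister chromatid and so serves cells that have replicated their DNA, whereas end joining rejoins broken ends at any stage of the cell cycle. Excision repair removes damaged bases or short stretches of 1 strand, and mismatch repair corrects replication errors. Loss of Fanconi genes in humans leads to bone marrow failure, and HSCs of mice that lack some of the repair genes lose part of their capacity to repopulate.

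The libraries differed in more than CD93. Reads assigned to genes numbered from 5794528 to 9509304 in CD93pos and from 2832653 to 4614396 in CD93neg, and genes with a read from 12564 to 17334 and from 4429 to 12029, with the lowest value in CD93neg replicate 1. Across genes, which are not independent replicates, log2 levels correlated with Pearson's r between 0.70 and 0.88 within CD93pos and between 0.23 and 0.46 within CD93neg. Cd93 itself was read 906, 1001 and 550 times in CD93pos, against 0, 419 and 38 times in CD93neg, so 2 libraries of the negative fraction held reads of it too. Per assigned read the groups overlapped for Cd93, with CD93neg replicate 2 above CD93pos replicate 3. All 12 stem cell marker genes were read in every library except CD93neg replicate 1, where 7 were, but their summed level was lower in every CD93pos library, at 2947, 2939 and 2543 CPM (reads per 1000000 assigned reads) against 5276, 4189 and 3439 CPM in CD93neg. The labels give male mice, yet the Y-linked gene Ddx3y was read 855, 328 and 243 times in CD93pos and never in CD93neg. Xist, which is read from the inactive X chromosome of females, was read 0, 0 and 12 times in CD93pos against 0, 2419 and 1143 in CD93neg. The 10 neutrophil markers summed to between 17.9 and 299.7 CPM in CD93pos, and to 0, 13085 and 9027 CPM in CD93neg, where S100a8 and Ngp were unread in replicate 1. The 10 B lineage markers summed to between 73.7 and 100.4 CPM in CD93pos and to 0.353, 11111 and 34016 CPM in CD93neg, with Cd79a, Ms4a1 and Pax5 at 0 in CD93pos. Erythroid markers lay at 376 to 901 CPM in CD93pos and 82.9 to 228 in CD93neg, and mast cell and basophil markers at 94.7 to 1057 and 0 to 27.5. Markers of T and natural killer cells lay at 218 to 418 CPM in CD93pos and 33.2 to 247 in CD93neg, with overlapping groups. The part of sex, of other cells and of library quality in the values that follow was not tested. In bulk RNA fewer cells of a type and less RNA per cell cannot be told apart.

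Sums were taken over the listed genes of each role group. Those of homologous recombination, the MRN complex with the RecQ helicases, the ID2 complex, end joining and mismatch repair were higher in CD93pos. For each of these groups every CD93pos library lay above every CD93neg library. The sum of nucleotide excision repair was lower in every CD93pos library. Further genes of nucleotide excision and mismatch repair, outside the list, did not follow, as given below. No single repair gene passed the test. The libraries also differed in which genes were read at all. All 46 were read in CD93pos replicate 1, 39 in replicate 2 and 45 in replicate 3. In CD93neg 13, 31 and 36 were read in replicates 1, 2 and 3. The order was the same at equal depth: after thinning every library to the 2832653 reads of the smallest one, 46, 38.5 and 45 of the genes were expected to be read in CD93pos and 13, 29.2 and 35.9 in CD93neg. The fall was shared with other genes. Of the 44 repair genes that averaged 10 or more in normalized counts, which were the ones tested, 29.5% were read in CD93neg replicate 1, and of all 11805 tested genes 29.0% were. A normalized count is the number of reads divided by 1 size factor per library. Only Rad51c and Fancm lay under that minimum.

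**Figure D1:**
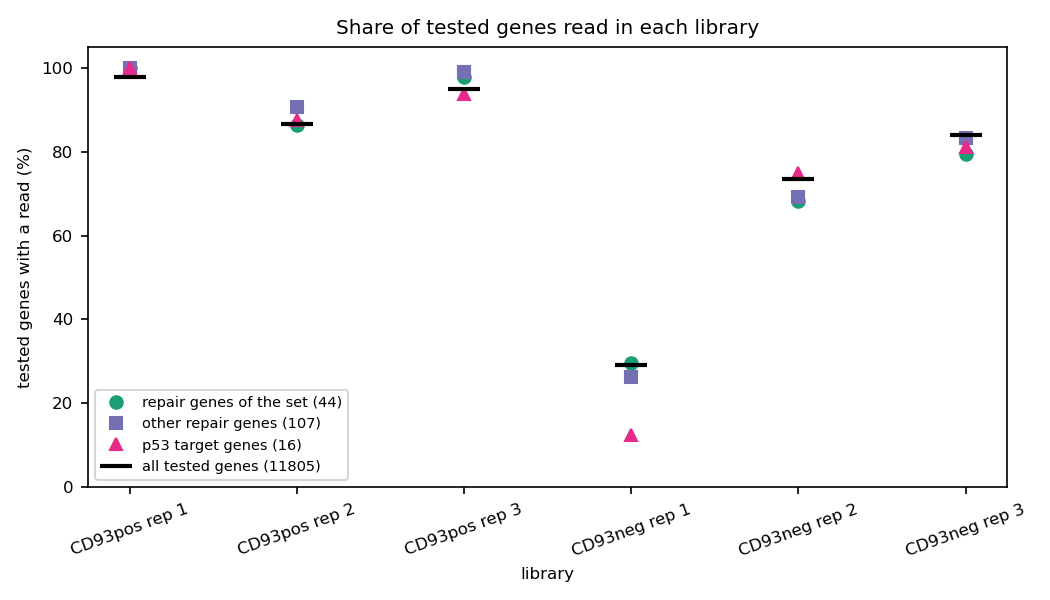
Share of tested genes with at least 1 read (y axis, %) in each library (x axis), for the 44 tested repair genes, the 107 tested genes of other repair lists, the 16 tested p53 target genes and all 11805 tested genes. In CD93neg replicate 1 every set but the p53 targets lay between 26.2% and 29.5%, while in CD93pos no set fell under 86.4%.

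Among the repair genes 10, 22.7% of the 44 tested, were read in all 6 libraries, against 22.9% of all tested genes. They were Brca2, Palb2, Wrn, Atr, Trp53, Trp53bp1, Mdm2, Parp1, Apex1 and Xpc. Fancd2 and Neil3 were read in every CD93pos library but in none of CD93neg, which is 4.55% of the 44 against 4.6% of all tested genes. Neil3, a glycosylase that removes oxidised bases from single-stranded DNA and unhooks crosslinks, had 1170, 410 and 972 reads in CD93pos replicates 1, 2 and 3. Fancd2, the protein that the Fanconi core complex ubiquitinates, had 335, 66 and 117. With a floor of 3 reads over the whole CD93neg group, the level in CPM was at least 396-fold higher in CD93pos for Neil3 and at least 80.4-fold higher for Fancd2. The bounds hang on the depth of the unread libraries and were 221 and 44.9 without CD93neg replicate 2. The bound for Fancd2 was 49.2 without CD93pos replicate 1. A further 3 genes, Fanca, Fancb and Rad51c, were unread in CD93neg but also unread in CD93pos replicate 2. Floors and intervals cover counting error only, since reads of amplified libraries are not independent molecules.

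**Figure D2:**
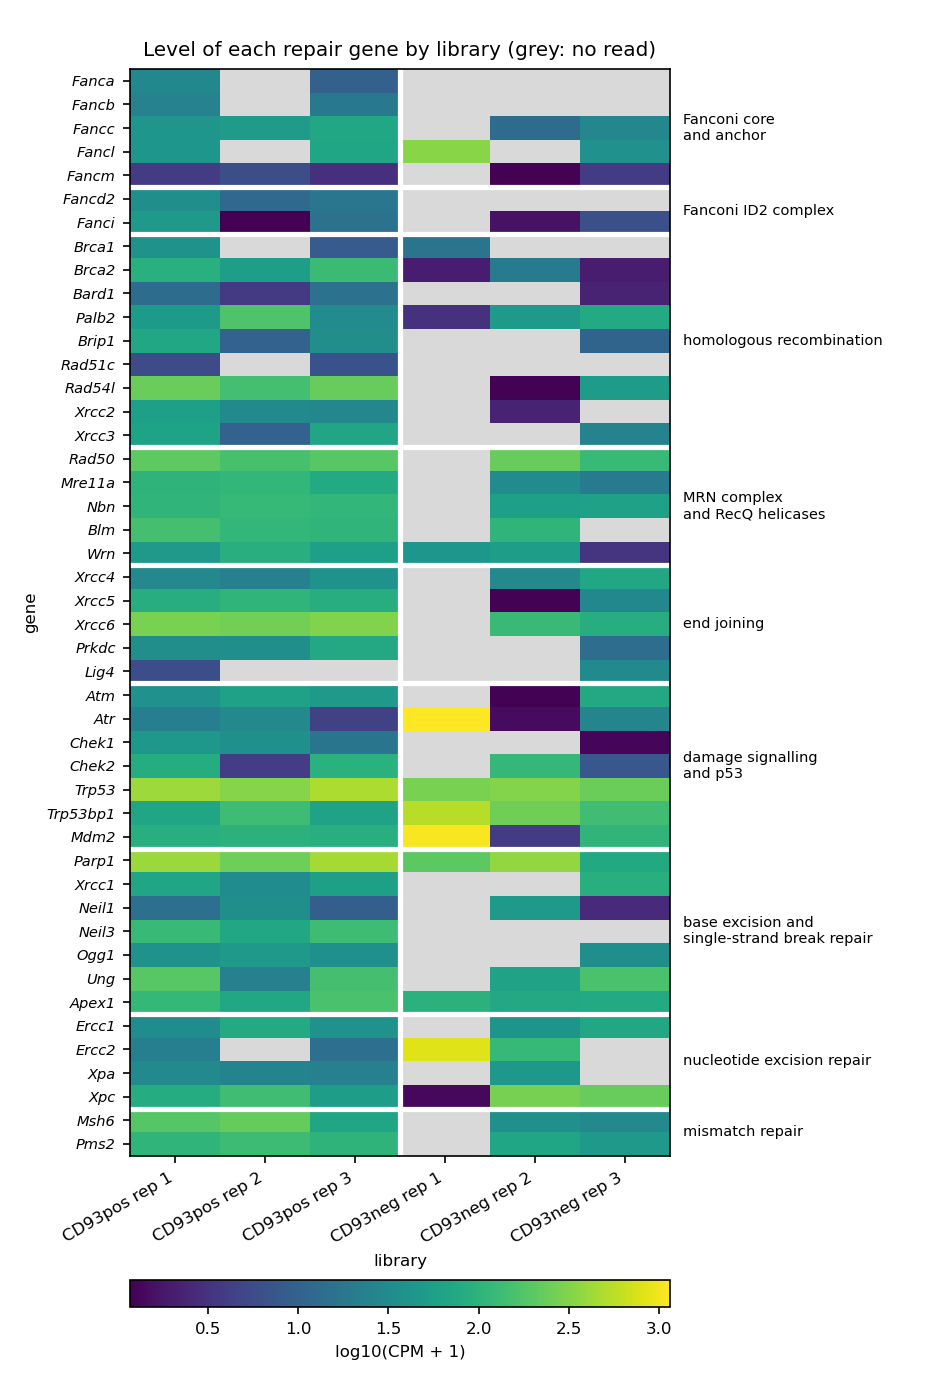
Level of each of the 46 repair genes (rows, grouped by role) in each of the 6 libraries (columns), as log10(CPM + 1) in colour, with grey for no read. Grey fills most of the column of CD93neg replicate 1, which read 13 of the 46 genes, with Atr, Mdm2 and Ercc2 as its brightest cells.

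The DNA before the start of 3 genes is shown to set Neil3, read only in CD93pos, beside Mdm2 and Apex1, whose log2 fold changes were the closest to 0 among the genes read in all 6 libraries. The value of Mdm2 hung on the setting, from -2.30 to 2.29 over the main setting and 16 alternatives. Windows are the 250 bases before the RefSeq start on GRCm38.p6, written 5′ to 3′ on the strand of the gene, chr8:53639066-53639315 (minus strand) for Neil3, chr10:117710759-117711008 (minus strand) for Mdm2 and chr14:50924699-50924948 (plus strand) for Apex1. The bases just after the RefSeq start were found in a GENCODE M21 transcript for Neil3 and Mdm2 but not for Apex1. GENCODE M21 starts Apex1 at 50924968, further downstream. Capitals mark a CCAAT box in either orientation.
Neil3: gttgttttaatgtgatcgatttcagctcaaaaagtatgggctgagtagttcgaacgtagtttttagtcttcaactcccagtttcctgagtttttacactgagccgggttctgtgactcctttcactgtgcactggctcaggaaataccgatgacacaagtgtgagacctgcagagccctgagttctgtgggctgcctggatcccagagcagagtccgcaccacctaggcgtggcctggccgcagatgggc
Mdm2: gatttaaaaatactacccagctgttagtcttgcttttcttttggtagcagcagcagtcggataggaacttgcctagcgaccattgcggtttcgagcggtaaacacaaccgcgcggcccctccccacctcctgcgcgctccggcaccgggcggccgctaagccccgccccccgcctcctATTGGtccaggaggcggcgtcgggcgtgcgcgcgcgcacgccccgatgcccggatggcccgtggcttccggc
Apex1: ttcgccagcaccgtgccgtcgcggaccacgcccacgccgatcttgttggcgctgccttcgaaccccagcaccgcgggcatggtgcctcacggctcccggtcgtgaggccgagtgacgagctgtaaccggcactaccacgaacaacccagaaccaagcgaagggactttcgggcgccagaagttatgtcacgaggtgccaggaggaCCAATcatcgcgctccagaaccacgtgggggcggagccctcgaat
The Neil3 window held none of the motifs searched, whereas Mdm2 and Apex1 each held 1 CCAAT box, in Mdm2 as its reverse complement ATTGG. Of the 46 genes 39 had a window. The motifs, searched on both strands, were the E2F sites TTTCCCGC, TTTGGCGC, TTTCGCGC and TTTGCCGC, CCAAT, and TTTGAA, the core of the element called CHR that is found in promoters of cell cycle genes. An E2F site was found for 4 of the 39 genes (10.3%: Brca2, Bard1, Xrcc6 and Chek2) and for 2.16% of the 27025 genes with windows of the same length. CCAAT was found for 22 (56.4%) against 37.5%, and TTTGAA for 1 (2.56%, Bard1) against 18.3%. No match of 1 motif overlapped a match of another. A match is a description of the letters, not a site shown to be bound.

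No repair gene passed the test of the comparison. The test was limma on log2(normalized count + 1), two-sided, with p-values adjusted by Benjamini-Hochberg over all 11805 genes tested and a threshold of 0.05. It called 0 of the 44 genes in either direction, and 0% of all genes. At an unadjusted p under 0.05, 10 of the 44 lay higher in CD93pos (22.7%, against 11.8% of all tested genes, 1391) and 0 lower (against 0.381%, 45). edgeR's quasi-likelihood test on the recovered reads also called 0% of all genes at the adjusted threshold. At an unadjusted p under 0.05 edgeR counted 9.04% of all genes higher and 1.51% lower. The log2 fold change, here always CD93pos minus CD93neg, was positive for 39 of the 44 (88.6%, against 79.9% of all) and negative for 5 (11.4%, against 20.1%), with a median of 3.62 against 2.36 over all tested genes. The positive shift of all genes moves with CD93neg replicate 1: without it the medians were 2.02 and 0.43, and after quantile normalization 1.22 and 0.02. The groups did not overlap for 16 genes higher in CD93pos (36.4%, against 18.3% of all) and for 1 lower (2.27%, against 1.92%), Trp53bp1. Single genes could not reach an exact permutation p below 0.1 with 3 libraries against 3. Nothing says that the libraries came from separate animals beyond the stated biological replicates, so p-values measure the spread between these libraries.

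The authors' deposited table of a DESeq2 comparison called 4 of the 43 repair genes with an adjusted p, all higher in CD93pos (9.30%, against 5.58% of the 11813 genes with an adjusted p; 0.389% were lower). In the authors' deposited table the adjusted p was 0.000585 for Neil3, 0.00752 for Chek1, 0.00818 for Fancd2 and 0.0335 for Xrcc2. DESeq2 run here on the recovered reads called the same genes. Leaving out a library changed the calls. Neil3 was the only 1 of the 4 called whichever library was left out. Without any 1 of the CD93pos libraries it was the only repair gene called higher, while 1.14%, 1.24% and 0.938% of all genes were without replicates 1, 2 and 3. Lig4 was called lower without CD93pos replicate 1 (1.67% of all genes were). That call rests on 1 library, since only CD93neg replicate 3 then had reads of Lig4. With no library left out DESeq2 gave Lig4 no adjusted p. Without CD93neg replicate 1, 7 repair genes were called (8.48% of all genes higher), without replicate 2 also 7 (8.07%) and without replicate 3 as many as 15 (17.9%). The 7 were the same 4 with Mre11a, Xrcc6 and Msh6 in the first case and with Brca2, Blm and Xpa in the second. In limma, 2 genes were called at a pseudocount of 0.5, Fancd2 and Neil3 (4.55%; 1.73% of all genes). With libraries left out, 13 of the 44 genes were called higher without CD93neg replicate 3 (29.5%; 15.9% of all genes) and 5 without CD93pos replicate 2 (6.56% of all genes), Fanca, Fancb, Fancd2, Chek1 and Neil3.

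**Figure D3:**
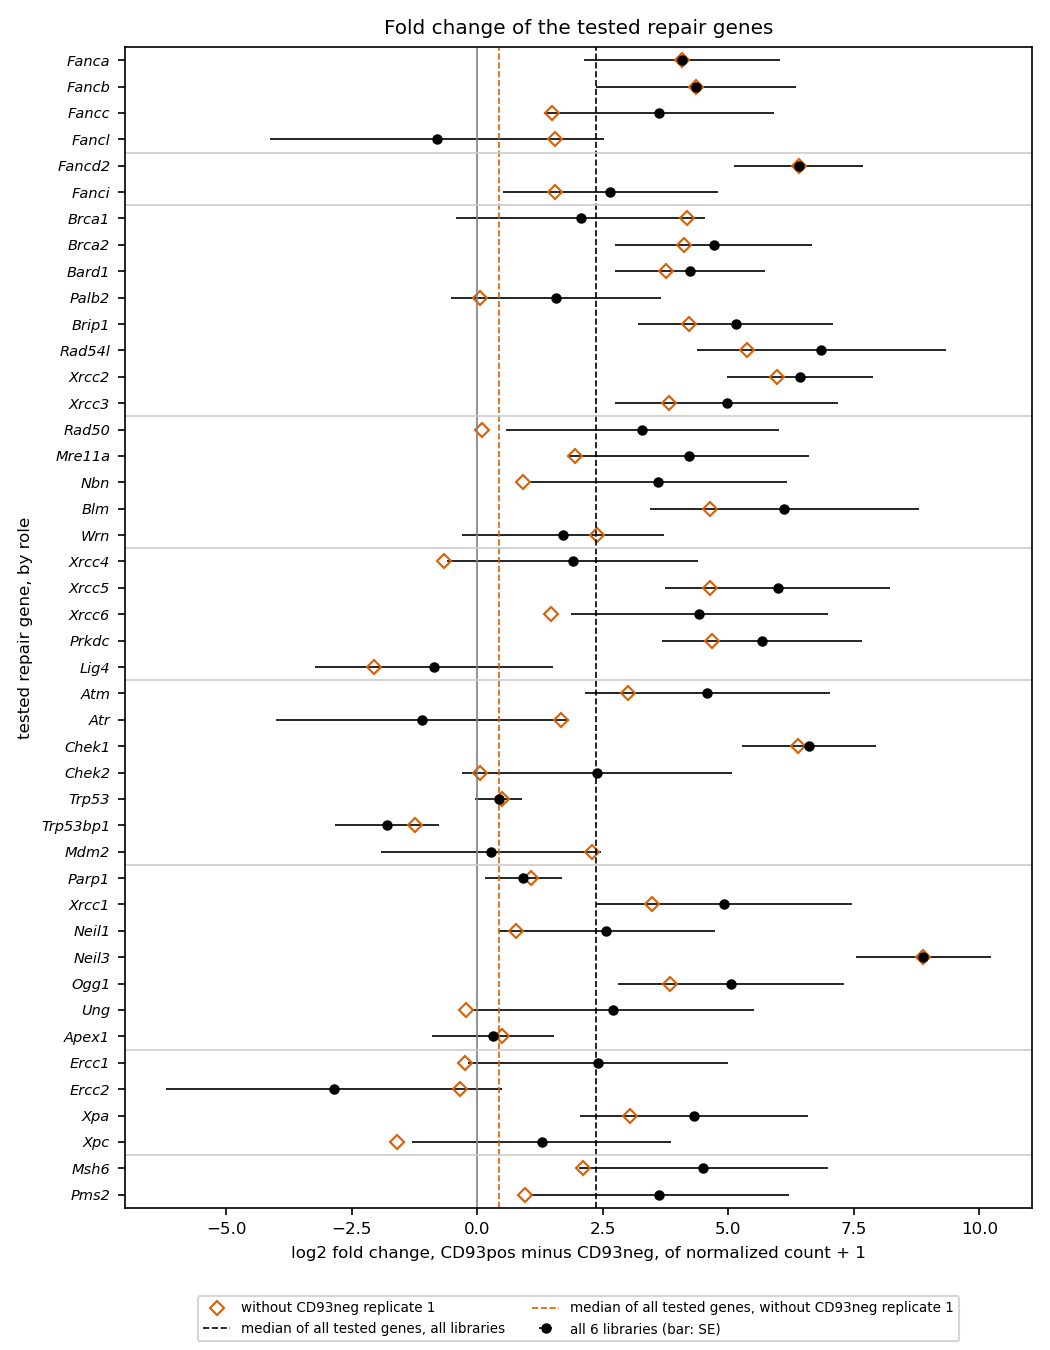
Log2 fold change (x axis, CD93pos minus CD93neg, of the normalized count + 1) of the 44 tested repair genes (y axis, grouped by role) from limma, with its SE (bars), over all 6 libraries (black points) and without CD93neg replicate 1 (open orange diamonds). Dashed lines mark the medians of all tested genes, 2.36 and 0.43, and most diamonds lie to the left of their points.

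In the Fanconi core complex and its anchor no gene passed limma over all 6 libraries, and Fanca and Fancb were called without CD93pos replicate 2. Fanca, a core subunit, had 265, 0 and 62 reads in CD93pos but none in CD93neg. Its mean normalized count was 53.1 ± 61.9 in CD93pos (SD, n = 3), and its log2 fold change 4.07 ± 1.95 (SE; adjusted p = 0.448). The bound on its ratio in CPM, at least 50.7-fold, fell to 16.7 without CD93pos replicate 1 and to 28.3 without CD93neg replicate 2. Fancb, an X-linked core subunit, had 227, 0 and 130 reads in CD93pos but none in CD93neg, a level at least 55.4-fold higher and a log2 fold change of 4.35 ± 1.99 (adjusted p = 0.432). The bound for Fancb was 30.9 without CD93neg replicate 2 and 35.0 without CD93pos replicate 1. For both genes a library without a read in each group made the groups overlap. Fancl, the ubiquitin ligase of the complex, went the other way, with 401, 0 and 492 reads in CD93pos against 958, 0 and 111 in CD93neg. The excess lay in CD93neg replicate 1: its log2 fold change was -0.81 ± 3.33 (adjusted p = 0.899) over all libraries, and 1.53 without CD93neg replicate 1. Fancc, another core subunit, had a normalized count of 182, 229 and 316 in CD93pos and 0, 54.2 and 129.7 in CD93neg, with no overlap and a log2 fold change of 3.62, or 1.48 without CD93neg replicate 1. Fancm, the translocase that anchors the complex to DNA, was the scarcest with 27, 30 and 14 reads in CD93pos against 0, 1 and 9 in CD93neg, and was not tested. Per assigned read, Fancm in CD93neg replicate 3 lay above CD93pos replicates 1 and 3. The 5 genes together made up 139, 55.1 and 169 CPM in CD93pos and 338, 12.6 and 67.6 CPM in CD93neg, and Fancl gave 100% of the reads of CD93neg replicate 1.

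Fancd2 and Fanci, which form the complex that the core ubiquitinates, summed to 83.1, 11.6 and 31.0 CPM in CD93pos and to 0, 0.650 and 5.33 CPM in CD93neg. Every CD93pos library lay above every CD93neg library, by a ratio of the means of 21, which was 10.7 without CD93pos replicate 1 and 129 without CD93neg replicate 3. The normalized count of Fancd2 was 153, 52.3 and 72 in CD93pos and 0 in each CD93neg library, with a log2 fold change of 6.40 ± 1.28 (adjusted p = 0.0558). This was the joint smallest adjusted p of any gene. Fanci had 455, 1 and 105 reads in CD93pos against 0, 3 and 16 in CD93neg, so its groups overlapped through CD93pos replicate 2, and its log2 fold change was 2.65 ± 2.14 (adjusted p = 0.614). After quantile normalization it was -0.11. The partners thus did not move alike in every library: in CD93pos replicate 2 Fancd2 had 66 reads and Fanci 1.

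The homologous recombination genes gave the largest ratio among the groups of 4 or more genes. The 9 genes summed to 623, 425 and 547 CPM in CD93pos and to 18.7, 68.5 and 164 CPM in CD93neg. The means were 532 ± 99.7 and 83.9 ± 74.1 (SD, n = 3 each), a ratio of 6.34, or 4.56 without CD93neg replicate 1 and 12.2 without CD93neg replicate 3, with no overlap. All 8 tested genes had a positive log2 fold change, with a median of 4.84 (4.14 without CD93neg replicate 1), and 7 of the 8 did after quantile normalization. Their share of all repair gene reads was 12.8% to 15.3% in CD93pos and 0.409%, 2.69% and 7.94% in CD93neg.

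Xrcc2, which helps recombination filaments to form on DNA, had the smallest p in this group, with a normalized count of 245, 141 and 120.0 in CD93pos and 0, 5.71 and 0 in CD93neg. Only CD93neg replicate 2 had reads among the negative libraries, 6 in number, and the log2 fold change was 6.42 ± 1.46 (adjusted p = 0.0685). Bard1, the obligate partner of BRCA1, had 53, 12.7 and 64 in CD93pos and 0, 0 and 6.25 in CD93neg, again with no overlap. The log2 fold change of Bard1 was 4.23 ± 1.49 (adjusted p = 0.268). Rad54l, a motor protein that drives strand exchange, was the most abundant with normalized counts of 1021, 671 and 1025 in CD93pos and 0, 0.951 and 234 in CD93neg. The spread within CD93neg was wide and the log2 fold change of 6.85 ± 2.48 did not pass (adjusted p = 0.285). Brca2, a mediator of homologous recombination, was read in every library, with normalized counts of 401, 251 and 561 in CD93pos and 5.45, 85.6 and 4.69 in CD93neg. The lowest CD93pos value was above the highest CD93neg value, and the log2 fold change was 4.71 ± 1.96 (adjusted p = 0.386).

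Brca1, a ubiquitin ligase that promotes the resection of breaks, did not share that separation. It had 376, 0 and 53 reads in CD93pos against 44, 0 and 0 in CD93neg, and its log2 fold change of 2.06 ± 2.48 (adjusted p = 0.673) was -0.41 after quantile normalization. Palb2, which links BRCA1 to BRCA2, overlapped as well, at 213, 791 and 137 in CD93pos and 10.9, 208 and 367 in CD93neg, and differed by a log2 of 0.04 without CD93neg replicate 1. The helicase gene Brip1 had 675, 54 and 243 reads in CD93pos against 0, 0 and 29 in CD93neg, and the recombination gene Xrcc3 had 599, 53 and 479 in CD93pos against 0, 0 and 73 in CD93neg. In both the 2 unread libraries were CD93neg replicates 1 and 2, and CD93neg replicate 3 lay above CD93pos replicate 2. Rad51c, a further recombination gene, had 45, 0 and 41 reads in CD93pos but none in CD93neg, a level at least 13.3-fold higher (7.45 without CD93neg replicate 2), and was not tested.

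Cycling markers also lay higher in CD93pos as a sum. Within CD93neg their sum was highest in replicate 1, where that of the homologous recombination genes was lowest. The 24 markers of replication and mitosis, all read in every CD93pos library, had 12, 13 and 17 members read in CD93neg. Their summed level was 7136 to 9175 CPM in CD93pos and 6348, 1567 and 2239 CPM in CD93neg, a ratio of the means of 2.47. Without CD93neg replicate 1 it was 4.39. Ccna2, Aurka, Plk1 and Pola1 were read in every CD93pos library but in none of CD93neg, 16.7% of the 24 against 4.6% of all tested genes. Mki67 was read 1545, 1065 and 1366 times in CD93pos against 5, 0 and 0 in CD93neg. In CD93neg replicate 1, 50% of the markers had a read, against 29.0% of all tested genes, and Mcm5 gave 23.4% of the marker reads there. All 24 log2 fold changes were positive, as were 79.9% of those of all tested genes. The median of the markers was 4.84 against 2.36, or 3.10 against 0.43 without CD93neg replicate 1. In DESeq2 21 of the 24 were positive (56.7% over all genes), with a median of 2.20 against 0.365. The part of cycling cells in the repair genes was not tested.

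The MRN complex senses broken ends, and the RecQ helicases unwind joined intermediates. These 5 genes summed to 612, 581 and 537 CPM in CD93pos and to 42.7, 478 and 199 CPM in CD93neg, a ratio of the means of 2.40 with no overlap. Without CD93neg replicate 1, in which only Wrn was read, the ratio was 1.70, and without CD93neg replicate 2 it was 4.77. Rad50, the ATPase of the complex, had normalized counts of 911, 707 and 829 in CD93pos and 0, 1021 and 563 in CD93neg, so that CD93neg replicate 2 held the highest value of all. For Rad50 the log2 fold change was 3.29 ± 2.71 (adjusted p = 0.617), and 0.10 without CD93neg replicate 1. The nuclease gene Mre11a did not overlap, at 439, 507 and 346 in CD93pos and 0, 139 and 87.5 in CD93neg, with a log2 fold change of 4.21 ± 2.39 (adjusted p = 0.502). For Mre11a it was 1.94 without CD93neg replicate 1. Nbn, the adaptor of the complex, did not overlap either, at 453, 544 and 484 in CD93pos against 0, 247 and 275 in CD93neg. Blm, a RecQ helicase, was read in 1 CD93neg library only, at 649.6, 515 and 457 in CD93pos and 0, 461 and 0 in CD93neg. That library lay above CD93pos replicate 3, and the log2 fold change was 6.11 ± 2.68 (adjusted p = 0.417). Wrn, the other RecQ helicase, had 209, 396 and 249 in CD93pos against 219.7, 231 and 10.9 in CD93neg, with overlapping groups.

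End joining genes lay higher in CD93pos as a sum, at 440, 429 and 508 CPM against 0, 152 and 227 CPM in CD93neg, a ratio of the means of 3.63, or 2.42 without CD93neg replicate 1, which read none of the 5, and 6.04 without CD93neg replicate 3. Xrcc6 and Xrcc5 encode the Ku heterodimer that caps broken ends. Xrcc6 had normalized counts of 1253, 1222 and 1378 in CD93pos, close together, and 0, 539 and 397 in CD93neg, with a log2 fold change of 4.42 ± 2.55 (adjusted p = 0.508). For Xrcc6 it was 1.47 without CD93neg replicate 1. Xrcc5 had 363, 483 and 369.8 in CD93pos and 0, 0.951 and 133 in CD93neg, with a log2 fold change of 5.98 ± 2.24 (adjusted p = 0.312). The groups did not overlap for either Ku gene. In CD93neg replicate 2 the subunits stood apart, with 567 reads of Xrcc6 and 1 of Xrcc5. Prkdc, the kinase that Ku recruits, was read in a single CD93neg library, at 149, 161 and 322 in CD93pos and 0, 0 and 59.4 in CD93neg, also without overlap. Limma gave a log2 fold change of 5.66 ± 1.99 (adjusted p = 0.262). The ligase Lig4 and its partner Xrcc4 did not follow. Lig4 had 49, 0 and 0 reads in CD93pos against 0, 0 and 90 in CD93neg, 1 library each, and Xrcc4 had normalized counts of 127, 104 and 167 in CD93pos against 0, 127 and 338 in CD93neg, with CD93neg replicate 3 highest.

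**Figure D4:**
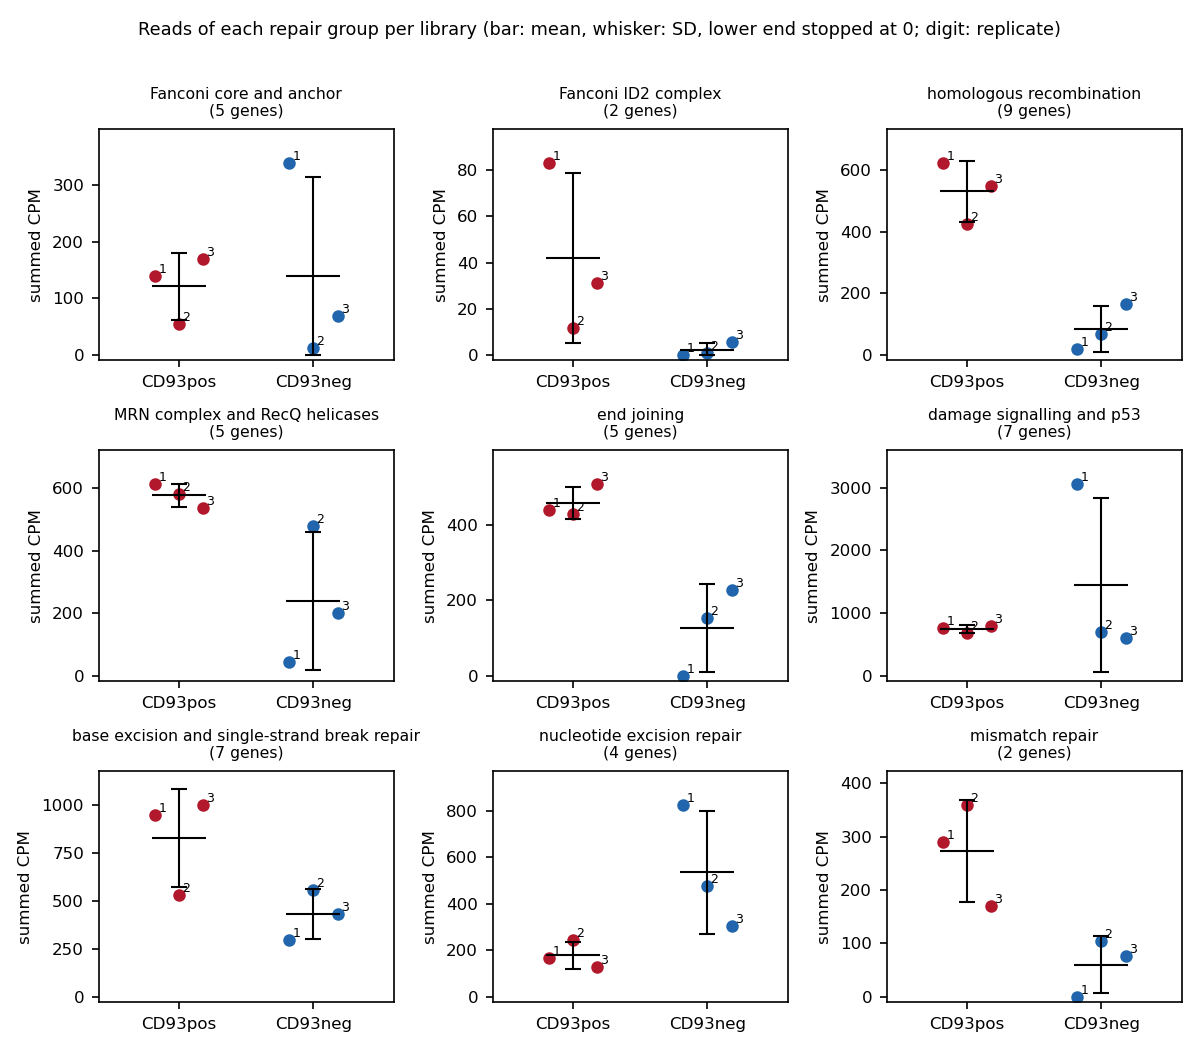
Summed reads of each of the 9 repair groups per library (y axis, CPM, linear from 0) in CD93pos and CD93neg (x axis), with a digit for the replicate, a horizontal bar for the mean and whiskers for the SD (n = 3 each). Homologous recombination, MRN and RecQ, end joining, the ID2 complex and mismatch repair separated with CD93pos above, nucleotide excision repair with CD93pos below, and damage signalling ranged from 680 to 799 CPM in CD93pos and from 595 to 3053 in CD93neg.

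Damage signalling genes did not separate as a sum, at 756, 680 and 799 CPM in CD93pos and 3053, 695 and 595 CPM in CD93neg. Chek1, the kinase that ATR activates when replication stalls, had 428, 209 and 115 reads in CD93pos against 0, 0 and 1 in CD93neg. With 1 read in the group, the ratio of its levels was 350, with a 95% counting interval from 62.6 to 13840. It was 195 without CD93neg replicate 2, and without CD93neg replicate 3, which held that read, the level was at least 83.1-fold higher. The fitted log2 fold change was 6.60 ± 1.34 (adjusted p = 0.0563). Chek2, the kinase downstream of ATM, had 360.2, 14.3 and 412 in CD93pos and 0, 501 and 31.3 in CD93neg, with low and high libraries in both groups. Atm, which responds to double-strand breaks, had 161, 270.2 and 208 in CD93pos and 0, 0.951 and 347 in CD93neg. Its highest value was in CD93neg replicate 3 and its lowest in CD93neg replicate 1, and the log2 fold change was 4.58 ± 2.44 (adjusted p = 0.474). For Atm it was 3.01 without CD93neg replicate 1.

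Atr, which responds to stalled forks, and Mdm2, the ubiquitin ligase that degrades p53, shared an extreme value in 1 library. Atr had normalized counts of 94.6, 132 and 15.4 in CD93pos and 5889, 1.9 and 120.3 in CD93neg. Mdm2 had 391, 445 and 390.1 in CD93pos, within a narrow range, and 5546, 13.3 and 491 in CD93neg. In CD93neg replicate 1 Atr ranked 147th and Mdm2 169th of all genes by reads. The log2 fold change of Atr was -1.10 ± 2.92 (adjusted p = 0.845) and 1.66 without that library. That of Mdm2 was 0.27 ± 2.18 (adjusted p = 0.949) and 2.29 without it, while edgeR gave -1.80 and DESeq2 -2.30. Atr, Mdm2 and Ercc2 held 66.6% of all repair gene reads in CD93neg replicate 1, and 2.71% to 6.29% in the other 5 libraries. The summed reads of the 46 genes therefore moved with that library: they were 4058, 3315 and 3890 CPM in CD93pos and 4571, 2547 and 2071 CPM in CD93neg, a ratio of the means of 1.23, or 1.63 without CD93neg replicate 1.

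Trp53, which encodes p53, was read in every library. Its normalized counts were 1794, 1483 and 2156 in CD93pos and 1478, 1407 and 1153 in CD93neg, and the means were 1811 ± 337 and 1346 ± 171 (SD, n = 3 each). The groups touched without overlapping, and the log2 fold change was 0.42 ± 0.47 (adjusted p = 0.66). Per kilobase of annotated exon and 1000000 reads it was also the highest of the 46 genes in CD93pos, at 101 ± 20.6. Trp53bp1, which shields broken ends from resection, was the only 1 of the 46 with CD93pos below CD93neg in every library, at 287, 614 and 266 against 2787, 1126 and 647. Its log2 fold change was -1.81 ± 1.03 (adjusted p = 0.504) and kept its sign in all 16 alternatives. Trp53bp1 shares 15.0% of its exon bases with Tubgcp4 on the other strand.

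The 18 listed p53 target genes summed to 710, 874 and 722 CPM in CD93pos and to 677, 762 and 717 CPM in CD93neg, a ratio of the means of 1.07. Of the 16 tested, 0 passed limma, 13 had a positive log2 fold change and the median was 2.64, or 0.32 without CD93neg replicate 1. After quantile normalization it was -0.37, with 8 of the 16 positive. Fas, a death receptor, had the smallest p, with 62, 146 and 32 reads in CD93pos but none in CD93neg (log2 fold change 5.37 ± 1.36, adjusted p = 0.0926). The next by p were Pmaip1, which promotes apoptosis, with 53, 153 and 0 reads in CD93pos, and Phlda3, which inhibits AKT, with 52, 0 and 143, both unread in CD93neg. Cdkn1a, the cell cycle inhibitor p21, had 69, 58 and 58 reads in CD93pos against 0, 0 and 51 in CD93neg. Per assigned read, its level was highest in CD93neg replicate 3. Its log2 fold change was 3.15 ± 1.95 (adjusted p = 0.538) and was -0.74 after quantile normalization.

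Among base excision genes, Parp1 and Apex1 were read in every library, and the other 5 were unread in at least 1 CD93neg library. The 7 genes summed to 949, 532 and 999 CPM in CD93pos and 297, 559 and 434 CPM in CD93neg, a ratio of the means of 1.92 with CD93neg replicate 2 above CD93pos replicate 2. Neil3 had normalized counts of 535, 325 and 598 in CD93pos and 0 in each CD93neg library. Its mean of 486 ± 143 (SD, n = 3) and log2 fold change of 8.88 ± 1.34 made it the largest difference of the 44 genes (adjusted p = 0.0558). Parp1, the sensor of single-strand breaks, was the most abundant of the group, at 1749, 1162 and 1999 in CD93pos and 1033, 1656 and 355 in CD93neg. Its groups overlapped, with a log2 fold change of 0.91 ± 0.77 (adjusted p = 0.621). Ogg1, the glycosylase for oxidised guanine, was at 171, 218 and 160.0 in CD93pos and 0, 0 and 164 in CD93neg, with a log2 fold change of 5.05 ± 2.25 (adjusted p = 0.423). A single CD93neg library lay inside the CD93pos range, and the other two were at 0. Xrcc1, the scaffold of single-strand break repair, was at 291, 149.8 and 251 in CD93pos against 0, 0 and 403 in CD93neg, where its 1 library with reads lay above all of CD93pos.

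Apex1, the endonuclease that cuts at abasic sites, was read in every library at 493, 326 and 693 in CD93pos and 492, 324 and 363 in CD93neg, and its log2 fold change was 0.31 ± 1.22 (adjusted p = 0.893). It shares 61.7% of its exon bases with Pip4p1 on the other strand, and without a stated strand setting the reads of the pair cannot be told apart. Ung, which removes uracil, had 826, 102 and 659 in CD93pos and 0, 271 and 746 in CD93neg. Its spread was wide in both groups, and the log2 fold change was -0.23 without CD93neg replicate 1. Neil1, a glycosylase related to Neil3, did not share its pattern: it had 130, 203 and 60 reads in CD93pos against 0, 213 and 5 in CD93neg, with the highest count in a CD93neg library.

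Nucleotide excision repair was the only group whose sum was lower in every CD93pos library, at 166, 242 and 127 CPM against 822, 478 and 302 CPM. The ratio of the means was 0.334, or 0.458 without CD93neg replicate 1. The group made up 3.27% to 7.29% of repair gene reads in CD93pos and 14.6% to 18.7% in CD93neg. Its 4 genes did not share a direction, and the libraries were carried by different genes. Ercc2, a helicase of the repair and transcription factor TFIIH, had normalized counts of 94.2, 0 and 59.1 in CD93pos and 4226, 514 and 0 in CD93neg, and gave nearly all of the reads in CD93neg replicate 1. Its log2 fold change was -2.86 ± 3.34 (adjusted p = 0.666), and -0.34 without that library. Xpc, which recognises distorted helices, carried the other two CD93neg libraries, at 354, 638 and 231 in CD93pos and 1.82, 1207 and 1078 in CD93neg, and its log2 fold change turned from 1.28 to -1.61 without CD93neg replicate 1. These 2 libraries were also the ones with neutrophil and B lineage markers, whose part in the level of Xpc was not tested. Ercc1, part of the nuclease that cuts beside the lesion, had 141, 357 and 172 in CD93pos against 0, 176 and 338 in CD93neg. Its log2 fold change of 2.40 ± 2.59 (adjusted p = 0.648) also turned, to -0.25. Xpa, the scaffold that verifies damage, had 133, 116 and 99.1 in CD93pos and 0, 199.8 and 0 in CD93neg, with a log2 fold change of 4.31 ± 2.27 (adjusted p = 0.47). The median log2 fold change of the 4 genes was 1.84, against the direction of the sum, and -0.30 without CD93neg replicate 1. It was also negative after quantile normalization (-0.72), in edgeR (-0.20) and in DESeq2 (-0.26). The 16 further nucleotide excision repair genes went the other way as a sum. They had 1430, 1558 and 1482 CPM in CD93pos against 1.06, 1134 and 1107 CPM in CD93neg. All 16 log2 fold changes were positive, with a median of 3.08. Without CD93neg replicate 1 the median was 0.62, with 10 of the 16 positive.

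Both mismatch repair genes of the list separated without overlap. They summed to 290, 358 and 170 CPM in CD93pos and to 0, 104 and 76.3 CPM in CD93neg, a ratio of the means of 4.56, or 3.04 without CD93neg replicate 1 and 7.16 without CD93neg replicate 2. Msh6, which helps to find mismatches, had normalized counts of 811, 1039.6 and 302 in CD93pos and 0, 158 and 138 in CD93neg, and a log2 fold change of 4.50 ± 2.47 (adjusted p = 0.489). Pms2, which acts once a mismatch is found, had 451, 606 and 449 in CD93pos against 0, 297 and 220.4 in CD93neg, with a log2 fold change of 3.62 ± 2.57 (adjusted p = 0.589). Without CD93neg replicate 1 the log2 fold changes were 2.10 for Msh6 and 0.96 for Pms2. The 5 further mismatch repair genes overlapped as a sum, at 661, 593 and 682 CPM in CD93pos and 1845, 686 and 584 CPM in CD93neg. Of these 5, 2 had a positive and 3 a negative log2 fold change, with a median of -0.48. Without CD93neg replicate 1 that median was 0.56.

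Trp53, Parp1 and Xrcc6 were the most read of the 46 in every CD93pos library, while Atr, Mdm2 and Ercc2 led in CD93neg replicate 1, Parp1, Trp53 and Xpc in replicate 2 and Trp53, Xpc and Ung in replicate 3. Within CD93pos the tested repair genes varied about as much as other genes, with a median coefficient of variation of 42.4% against 43.3% over all tested genes. Over the main setting and 16 alternatives, 33 of the 44 tested genes kept 1 sign of the log2 fold change, 31 of them positive and 2 negative, Trp53bp1 and Ercc2. The same share over all tested genes is not given here. In the main setting 79.9% of all tested genes were positive, against 88.6% of the 44. After quantile normalization 50.5% were, against 75%. The 11 that turned in at least 1 setting were Fancl, Fanci, Brca1, Xrcc4, Lig4, Atr, Mdm2, Neil1, Ung, Ercc1 and Xpc.

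Further genes of the repair pathways also had mostly positive fold changes, and none passed limma. Of 112 further repair genes in the table, 107 were tested, 0 were called and 101 had a positive log2 fold change (94.4%), with a median of 3.20, or 1.39 without CD93neg replicate 1. After quantile normalization 78 of the 107 were positive. Their groups did not overlap for 28 genes higher in CD93pos (26.2%, against 18.3% of all) and for 0 lower. DESeq2 on the recovered reads called 9 of the 104 with an adjusted p higher (8.65%, against 5.58%) and 0 lower, whereas edgeR called 0. These genes summed to 8632 to 9890 CPM in CD93pos and 5911 to 6889 CPM in CD93neg, a ratio of the means of 1.48 with no overlap. The 4 with the smallest p were Ercc3, the second helicase of TFIIH, Poli, a polymerase that copies past lesions, Apex2, a relative of Apex1, and Gen1, a resolvase of recombination intermediates. Ercc3 had 304, 328 and 198 reads in CD93pos but none in CD93neg, a level at least 129-fold higher with a log2 fold change of 7.37 ± 1.27 (adjusted p = 0.0558). Its pattern was thus opposite to that of Ercc2 in CD93neg replicate 1. Poli had 571, 406 and 483 reads in CD93pos against 0, 0 and 1 in CD93neg, a ratio of 679 with a 95% counting interval from 122 to 26853. Apex2, with 208, 161 and 126, and Gen1, with 177, 93 and 140, were also unread in CD93neg, at least 76.8-fold and 63.6-fold higher. Without CD93neg replicate 2 the bounds were 71.9 for Ercc3, 42.9 for Apex2 and 35.5 for Gen1, and the ratio for Poli was 379. Without CD93neg replicate 3, which held its 1 read, the level of Poli was at least 161-fold higher.

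Counting could mix some of these genes with their neighbours. Of the 46 genes, 23 share exon bases with another annotated gene in GENCODE M21 (GRCm38), and the strand setting of the counting is not given in the sources used here. The share was 24.6% for Ercc2 (Gm26852), 16.4% for Fancc (Gm16133), 16% for Fanci (Polg), 15.4% for Rad54l (Lrrc41), 13.7% for Fancl (Vrk2), 10.6% for Ogg1 (Camk1) and 10.5% for Fanca (Zfp276). Neil3 and Chek1 share none, and Fancd2 shares 3.24% with Fancd2os. Neil3 (ENSMUSG00000039396.10) lies on chromosome 8 from 53586867 to 53639065, Fancd2 (ENSMUSG00000034023.16) on chromosome 6 from 113531682 to 113597017, Chek1 (ENSMUSG00000032113.15) on chromosome 9 from 36708482 to 36727065 and Xrcc2 (ENSMUSG00000028933.11) on chromosome 5 from 25689812 to 25705825.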

How the data were processed

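Polyadenylated RNA of 3 CD93pos and 3 CD93neg libraries was compared, grouped by their titles. Per the labels' protocols, a low-input kit was used and pairs of 50 bases were read. Per the submitters' processing notes, the tools were STAR, Subread 1.5.0-p1 with featureCounts, and DESeq2 1.26, and the build was GRCm38 (mm10). The annotation release is not given in the sources used here. The authors deposited a signal table of normalized counts, gene counts divided by 1 size factor per library. For each gene the authors also deposited, per the file headers, a mean normalized count, a log2 fold change with SE, a Wald test score, a p-value and its adjusted value. Values above 0 were whole multiples of 1 read in 100% of cases, within a tolerance of 0.001, so reads were recovered and summed to the totals given above.

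limma 3.58.1 (lmFit, eBayes with a trend) was run on log2(normalized count + 1) for genes with a mean of at least 10, with no covariate. Fold changes on this scale can understate low genes and grow large where libraries are at 0. On the recovered reads, edgeR 4.0.16 called 0 genes and DESeq2 1.42.0 called 705. Steps were tested on simulated data. For limma these had an even spread and no library with most genes unread, so they do not show how the test behaves on these libraries. The repair genes, the further lists and the role groups were chosen with earlier results of these data known, so no list was tested as a set. Genes given with full statistics were, in each role group, the 2 with the smallest p and the most abundant, and Fanca, Fancd2, Brca1, Brca2, Atm, Atr, Trp53, Mdm2 and Prkdc, and the 4 with the smallest p of the further repair genes and of the p53 targets. The others were described after their values were seen. Some further repair genes are not reported here. Promoter windows came from RefSeq (GRCm38.p6), and Fancd2, chosen by the same rule as Neil3, had none there. Exon overlaps and lengths came from GENCODE M21, in which 47224 IDs were found after removing version suffixes. Per-length levels use the merged exon length. R 4.3.3, Python 3.11.15, numpy 2.4.6, pandas 2.3.3, scipy 1.17.1 and matplotlib 3.10.9 were used.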

Additional observations from a re-analysis of the deposited data

How the results depend on the processing

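Alternatives were a pseudocount of 0.5 or 10, no filter, a mean of at least 50, CPM, TMM or quantile scaling, edgeR, DESeq2, a replicate block and each library left out. DESeq2, the ratios of summed reads and the bounds of further genes with each library left out were added after seeing the data. The count of genes called higher, 0 in limma, was 204 at a pseudocount of 0.5, 659 in DESeq2 and 15 with the replicate block. Genes called lower were 2, 46 and 9. Repair genes called higher were 2 at a pseudocount of 0.5 and 4 in DESeq2, further repair genes 6 and 9, and p53 targets 1 in DESeq2. With libraries left out, limma called 0 to 1875 genes higher and 0 to 5 lower, 0 to 13 repair genes, 0 to 26 further repair genes and 0 to 2 p53 targets higher. Without CD93pos replicates 1, 2 and 3 and CD93neg replicates 1, 2 and 3 in turn, DESeq2 called 126, 144, 103, 1098, 977 and 2295 genes higher, 184, 101, 117, 241, 117 and 151 lower, 1, 1, 1, 7, 7 and 15 repair genes higher and 1, 0, 0, 0, 0 and 0 lower. In the same order it called 2, 3, 2, 18, 16 and 27 further repair genes higher, and 0 to 2 p53 targets. The ratio of summed repair gene reads ranged from 1.05 to 1.63. With libraries left out, the log2 fold change ranged from -3.85 to 1.82 for Fancl (1.53 without CD93neg replicate 1), from -3.83 to 1.66 for Atr, from -2.01 to 2.29 for Mdm2 and from -0.25 to 3.96 for Ercc1, turning without CD93neg replicate 1 (Fancl, Atr, Ercc1), CD93pos replicate 2 (Fancl) or CD93neg replicate 2 (Mdm2). It also turned for Fanci (-0.11), Brca1 (-0.41), Mdm2 (-0.59) and Cdkn1a (-0.74) after quantile normalization, and for Mdm2 in edgeR (-1.80) and DESeq2 (-2.30). The cause was not tested. Same-numbered libraries shared only a number (correlations of deviations 0.0372, 0.0191 and 0.0605), and the replicate block called 0 repair genes. Each library correlated best with its own number, a hint from the data and not the design. Reads at this depth could not show a level below the floor of 3 per group, and 31 of the 44 tested repair genes were unread in CD93neg replicate 1.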

Other observations

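Within the further repair lists, the 7 translesion synthesis genes, which copy past damage, all had a positive log2 fold change (5 of the 7 after quantile normalization), and 0 passed limma. They summed to 628, 506 and 570 CPM in CD93pos and 207, 179 and 523 CPM in CD93neg, with CD93neg replicate 3 inside the CD93pos range. Pcna, the sliding clamp of replication and repair, was read in every library, at 2631, 876 and 2017 reads in CD93pos against 585, 345 and 592 in CD93neg. Per assigned read the groups overlapped for Pcna, with CD93neg replicates 1 and 3 above CD93pos replicate 2. The 3 direct reversal genes, which undo alkylation without cutting DNA, summed to 72.8, 67.8 and 94.8 CPM in CD93pos and to 0, 118 and 176 CPM in CD93neg. Mgmt, the methyltransferase among them, had 173, 0 and 207 reads in CD93pos against 0, 181 and 59 in CD93neg. Per assigned read, the level of Mgmt was highest in CD93neg replicate 2. These genes were named after their values were seen.

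Per kilobase of merged exon and 1000000 assigned reads, the levels of the 46 genes spanned a wide range in CD93pos, from 0.318 ± 0.159 for Fancm and 0.33 ± 0.572 for Lig4 to 69.9 ± 19.7 for Parp1, 80.1 ± 30.4 for Apex1 and 101 ± 20.6 for Trp53 (SD, n = 3). In CD93neg, Mdm2 at 77.8 ± 117 and Ercc2 at 75 ± 107 had the highest means, each with an SD above its mean, and Trp53 at 70.3 ± 9.26 had a small one.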
